A study of Homo sapiens with 6 samples.

Results

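The genes described here are 46 genes of DNA repair, grouped by pathway, in the human multiple myeloma cell line MM.1S. A gene was taken from its brightest probe set among those that the platform annotation pairs with that symbol alone. In this way 43 of the 46 genes were found among 11963 genes with such a probe set. PMS2, BRCA2 and FANCA had no such probe set in the annotation used here and were not analysed. Cultures received enzastaurin, which blocks the beta form of protein kinase C, and were collected after 3, 6 or 12 h beside untreated cultures of the same times. RNA of whole cultures was hybridised to 1 array for each treatment and time, which gave 3 enzastaurin and 3 untreated arrays. The dose is not given in the sources used here, the controls are described as untreated and not as vehicle-treated, and all results rest on 1 cell line. The comparison asked which repair transcripts were higher or lower with the inhibitor, and at which times.

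Cells repair damaged bases, mismatches, bulky adducts and broken strands by separate sets of enzymes. Nucleotide excision repair cuts out a stretch of strand around a bulky lesion, base excision repair removes a single altered base, and mismatch repair corrects replication errors. Double-strand breaks are rejoined directly by end joining, which uses the Ku proteins and DNA-PK, or copied from an intact sister by homologous recombination, while ATM, ATR and their checkpoint kinases signal the damage. B cells rearrange and mutate their immunoglobulin genes before they become plasma cells, and myeloma cells carry many chromosome breaks.

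Values are linear MAS5 intensities of a probe set, or log2 ratios of enzastaurin over untreated cells at the same time. A mean log2 ratio is the mean over the 3 times with its moderated standard error (SE) from limma, and an adjusted p below 0.05 over all 6838 genes tested was called. Single times have no replicate. Intensities of different genes are not set against each other, since probe sets differ in sensitivity. In RNA of whole cultures, fewer cells with a transcript and less of it in each cell cannot be told apart. The error of a mean log2 ratio comes from the spread of the ratio between times. A change of the treatment effect with time therefore counts as error in that fit. Nothing in the labels says that arrays came from separate cultures, so the spread behind each p-value may also be technical in part or whole.

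Median intensity was 62.2 to 67.6 on enzastaurin arrays and 63.3 to 64.3 on untreated arrays. All 8 plasma cell markers looked for were measured well above the background, with geometric means of 146 to 5647, while T, NK and monocyte markers had geometric means of 42.0 or less. Summed T and NK marker intensity was 156 to 209 with enzastaurin and 163 to 191 in untreated cultures, and summed monocyte marker intensity was 117 to 166 and 104 to 190. Of 4 erythroid markers 2 were measured, and HBB had a geometric mean of 264. The arrays parted across treatment in their 6 ribosomal RNA probe sets. Their mean log2 intensity was 9.72, 5.70 and 5.31 on the enzastaurin arrays of 3, 6 and 12 h, against 5.51, 10.94 and 9.24 on the untreated arrays. At 3 h the enzastaurin array therefore had more ribosomal RNA signal, and at both later times the untreated one did. The 3' to 5' log2 ratio of ACTB was 2.004, 0.57 and 0.86 with enzastaurin, against 1.89, 1.16 and 1.60 in untreated cultures.

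Of the 43 repair genes, 37 passed the filter on intensity (geometric mean over 6 arrays of 63.3 or more) and were tested. ERCC2, ERCC6, XRCC1, LIG4, XRCC3 and RAD52, with geometric means of 22.5 to 57.4, were too dim and are given as values only. Log2 ratios at 3, 6 and 12 h were 0.78, 0.27 and -0.06 for ERCC6, 0.19, -0.60 and 0.42 for XRCC3, and -0.52, -0.33 and 0.11 for RAD52. Over all 3 times none of the 37 repair genes passed in limma (0.0585 percent of all genes did), and 1, PARP1, had an unadjusted p below 0.05. Of all genes 5.41 percent had one, 3.48 percent on the lower side, as PARP1, and 1.93 percent on the higher side. The mean log2 ratio ran from -0.75 for XRCC2 to 1.08 for ERCC4. It was below 0 in 30 of 37 repair genes (81.1 percent), against 56.6 percent of all genes tested. The median over the repair genes was -0.25, and over all genes -0.05.

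Repair genes were lower at all 3 times in 11 of 37 cases (29.7 percent), where 14.2 percent of all genes were, and no repair gene was higher at all 3 times, where 9.14 percent of all genes were. The 11 genes were ERCC3 and RAD23B of nucleotide excision, LIG3 and PARP1 of base excision and single-strand break repair, XRCC4, XRCC5 and PRKDC of end joining, RAD50, RAD51C and RAD54L of homologous recombination, and the checkpoint kinase CHEK2. In 5 of the 37 repair genes (13.5 percent) every enzastaurin array lay below every untreated array, against 7.18 percent of all genes. None lay wholly above, against 3.47 percent of all genes. Median ratios of the repair genes were -0.20, -0.12 and -0.43 at 3, 6 and 12 h, and those of all genes -0.04, 0.06 and -0.18. The repair medians were below 0 at each time under the 4 other scalings and floors tried. Small ratios did turn sign. FANCC was higher at all 3 times with quantile normalization, with equal medians of all probe sets and with equal medians of the genes tested. With quantile normalization 10 genes were lower at all 3 times, with ERCC3, RAD50 and RAD54L no longer among them and BARD1 and ERCC5 added. With equal medians of all probe sets 14 genes were lower at all 3 times. At 12 h 26 of 37 repair genes were below 0, where 61.1 percent of all genes were, so a ratio at that time is to be read against the median of -0.18.

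A second limma fit used the 6 h and 12 h pairs alone and is called the late fit. This fit was chosen after earlier results of these data had shown 3 h apart from the later times. Its p-values are therefore not those of a test set in advance. In it 1 of 37 repair genes passed, ERCC4 on the higher side, where 3.61 percent of all genes were called, 1.54 percent higher and 2.08 percent lower. The next smallest adjusted p was that of PARP1, at 0.114. The slope of the ratio per doubling of hours passed for ERCC4 upward, where 0.512 percent of all genes were called, and for NTHL1 downward, where 0.921 percent were (1.43 percent in either direction). Of the 37 repair genes 1 was at least 2-fold lower at 3 h (2.65 percent of all genes), 1 at 6 h (3.22 percent) and 5 at 12 h (10.4 percent). None was at least 2-fold higher at 3 h (1.89 percent of all genes), and 2 were at 6 h (5.60 percent) and 2 at 12 h (3.88 percent).

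**Figure D1:**
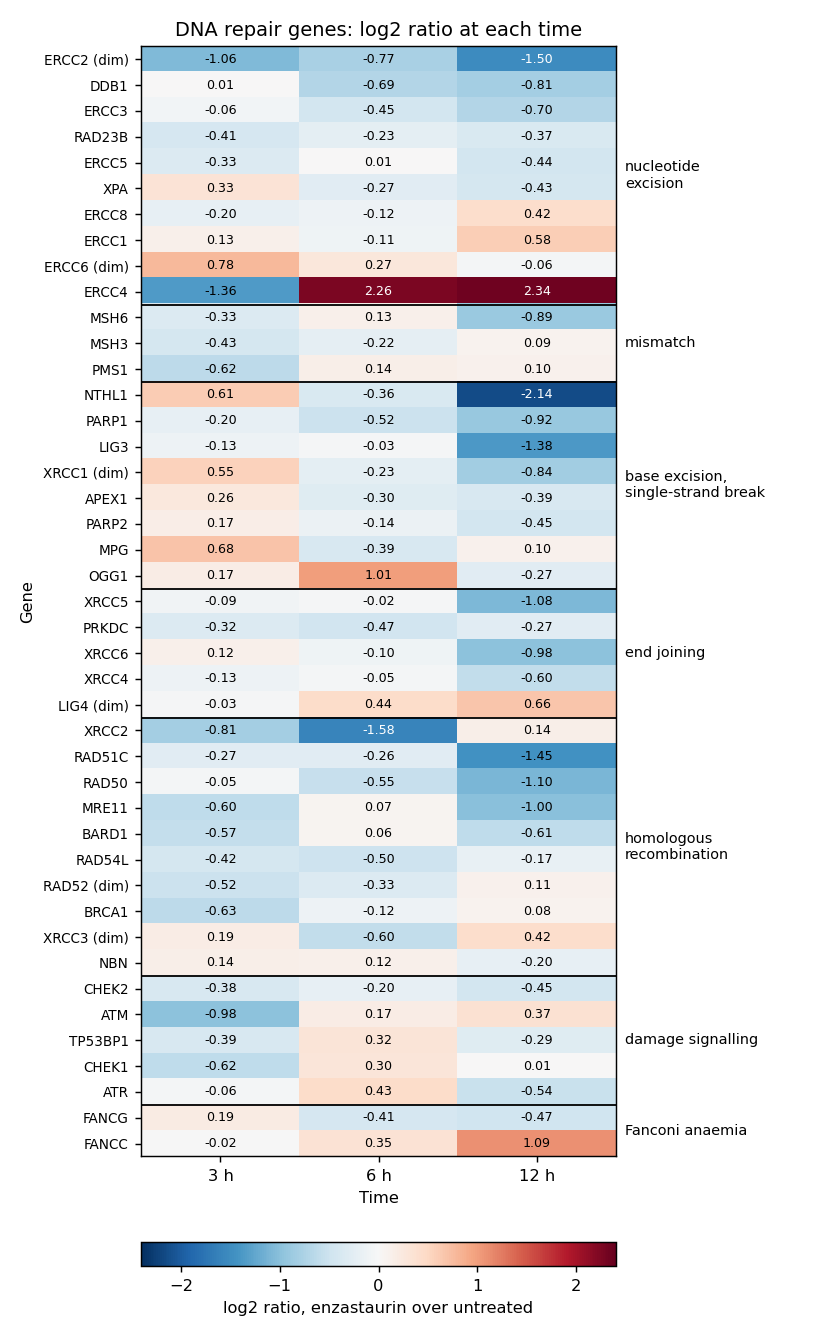
Log2 ratio of enzastaurin over untreated cells for the 43 repair genes (rows, by pathway) at 3, 6 and 12 h (columns), 1 array on each side. Blue is lower and red is higher with enzastaurin, and genes marked dim lay below the intensity filter. ERCC4 turns from -1.36 at 3 h to 2.26 and 2.34, and NTHL1 from 0.61 to -2.14.

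Among nucleotide excision genes, ERCC4 stood apart. It encodes XPF, which with ERCC1 forms the nuclease that cuts the damaged strand on its 5' side. ERCC4 had intensities of 39.3, 200 and 189 after 3, 6 and 12 h of enzastaurin, against 101, 41.7 and 37.3 in untreated cultures. It was thus lower with enzastaurin at 3 h and higher at 6 h and 12 h, and the 2 groups overlapped. ERCC4 rose in the late fit (log2 ratio 2.30, SE 0.37, adjusted p = 0.00165 in limma, higher in 2 of 2 pairs), and its slope was 1.85 per doubling of hours (SE 0.41, adjusted p = 0.00206). Its untreated mean lay below the intensity filter, so it entered both tests through its enzastaurin arrays. The slope was as large but did not pass with quantile normalization (1.84, adjusted p = 0.157) or with equal medians of the genes tested (1.94, adjusted p = 0.333). Over all 3 times its mean log2 ratio was 1.08 (SE 0.60, adjusted p = 0.980), and without the 6 h or the 12 h pair that mean was 0.49 or 0.45.

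The 3 arrays with high ERCC4 were the 3 with low ribosomal RNA signal, namely enzastaurin at 6 h and 12 h and untreated cells at 3 h. When ribosomal RNA intensity was added as a covariate, the mean log2 ratio of ERCC4 was 0.41 (SE 0.36, adjusted p = 0.999). Ribosomal RNA moved with the treatment in both late pairs, so the 2 cannot be told apart there. ERCC4 was not alone in this split. APEX1, DDB1, FANCG, XPA and PARP2 were lower on those 3 arrays than on the other 3, DDB1 by a narrow margin, and ATM was higher. The same limit holds for the late ratios of these genes. ERCC4 has 1 probe set, and its low values lie near the 42.0 of the brightest T cell marker, CD3E, so no exact fold is given. Its mean log2 intensity was 6.84 with enzastaurin and 5.75 in untreated cultures, and only the enzastaurin mean lay above the filter. The partner gene ERCC1 had 117, 119 and 163 in enzastaurin cells against 107, 128 and 108 in untreated cultures (mean log2 ratio 0.20, SE 0.30, adjusted p = 0.999).

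**Figure D2:**
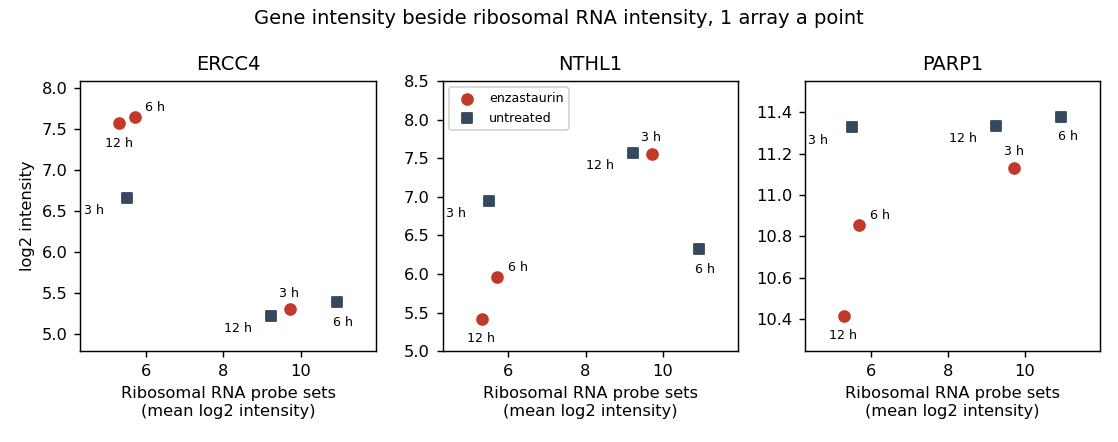
Log2 intensity of ERCC4, NTHL1 and PARP1 (vertical axes) against the mean log2 intensity of the ribosomal RNA probe sets (horizontal axis) on the 6 arrays. Circles are enzastaurin and squares untreated arrays, labelled by time. ERCC4 was high on the 3 arrays with ribosomal RNA at 5.31 to 5.70, the untreated 3 h array among them, while PARP1 on that array stood with the other untreated ones.

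The 250 bases before the start site of ERCC4 are shown because it was the repair gene called in both fits (RefSeq, GRCh38.p14, chr16:13919904-13920153, plus strand). Capitals mark the 9 copies of TTCGGC on the gene's strand.
ERCC4: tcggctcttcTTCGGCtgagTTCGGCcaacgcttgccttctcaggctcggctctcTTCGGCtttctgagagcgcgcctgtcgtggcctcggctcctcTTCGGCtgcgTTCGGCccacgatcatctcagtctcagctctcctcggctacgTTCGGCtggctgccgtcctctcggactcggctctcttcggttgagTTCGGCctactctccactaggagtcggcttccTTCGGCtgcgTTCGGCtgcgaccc
This unit was picked after the sequence had been seen. It occurs at least once in 2.98 percent of 35116 promoter windows of this length, and ERCC4 was the 1 window with 9 or more copies. What the repeat does is not addressed by these arrays.

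The other nucleotide excision genes had smaller ratios. ERCC3, a helicase subunit of TFIIH that opens DNA at the lesion, had 191, 185 and 143 with enzastaurin, against 200, 253 and 232 in untreated cultures. All 3 enzastaurin values of ERCC3 lay below the untreated ones (mean log2 ratio -0.40, SE 0.30, adjusted p = 0.980). RAD23B, which stabilises the damage sensor XPC, also had no overlap, with 656, 828 and 679 against 870, 972 and 876 (mean log2 ratio -0.34, SE 0.26, adjusted p = 0.980). The mean ratios of the other kept probe sets of RAD23B were -0.59 and 0.07. ERCC2, the second TFIIH helicase, had 18.2, 18.5 and 12.3 with enzastaurin against 38.0, 31.7 and 34.8, without overlap but at the level of absent cell type markers, so it was not tested. DDB1, part of the ultraviolet damage sensor, had log2 ratios of 0.01, -0.69 and -0.81. ERCC5, the nuclease of the 3' cut, the damage binder XPA and the transcription-coupled factor ERCC8 had ratios between -0.44 and 0.42 at every time.

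In base excision and single-strand break repair, PARP1 was the gene with the smallest p. It encodes the enzyme that senses strand breaks and builds poly(ADP-ribose), and it is the target of PARP inhibitors. PARP1 had 2244, 1853 and 1367 after 3, 6 and 12 h of enzastaurin, against 2570, 2663 and 2580 in untreated cultures. The untreated values stayed within a narrow range, and all 3 enzastaurin values lay below them, the lowest at 12 h. The log2 ratios were -0.20, -0.52 and -0.92 (mean -0.55, SE 0.21, 1.46-fold lower, unadjusted p = 0.0267 and adjusted p = 0.819 in limma). The slope did not pass (-0.36, SE 0.25, adjusted p = 0.642). With the ribosomal RNA covariate the mean log2 ratio of PARP1 was -0.46 (SE 0.23, adjusted p = 0.852 in limma).

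NTHL1, a glycosylase that removes oxidised pyrimidines, had the called downward slope (-1.38 per doubling of hours, SE 0.40, adjusted p = 0.0406). Its intensities were 188, 62.4 and 42.9 after 3, 6 and 12 h of enzastaurin, against 123, 79.9 and 190 in untreated cultures. The enzastaurin array was the higher one at 3 h and the lower one at 6 h and 12 h, and untreated cells themselves ranged from 79.9 to 190. The slope was of like size but did not pass with quantile normalization (-1.38, adjusted p = 0.181), without the intensity filter (-1.38, adjusted p = 0.0549) or with equal medians of the genes tested (-1.29, adjusted p = 0.336), and its 12 h value lies near the level of absent markers. Without the 12 h pair its mean log2 ratio was 0.13, against -0.63 over all times. With the ribosomal RNA covariate it was -0.32 (SE 0.35).

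LIG3, the ligase that seals single-strand breaks with XRCC1, had 102, 104 and 48.8 with enzastaurin, against 112, 106 and 127 in untreated cultures. Its groups did not overlap, by a narrow margin at 3 h and 6 h, and the 12 h log2 ratio was -1.38 (mean -0.51, SE 0.35, adjusted p = 0.980). XRCC1 itself was dim, with log2 ratios of 0.55, -0.23 and -0.84. APEX1, the endonuclease that cuts at abasic sites, had 517, 497 and 480 with enzastaurin, against 432, 610 and 628 in untreated cultures (mean log2 ratio -0.14, SE 0.29, adjusted p = 0.999). PARP2 had 0.17, -0.14 and -0.45, and the alkyl-adenine glycosylase MPG 0.68, -0.39 and 0.10. OGG1, which removes oxidised guanine, was at 1.01 at 6 h, where a second kept probe set gave -0.53, so its direction is not settled.

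The windows before NTHL1 and PARP1 are shown as the base excision gene with a called slope and the one with the smallest p. They lie at chr16:2047835-2048084 and chr1:226408094-226408343, both on the minus strand (RefSeq, GRCh38.p14), and capitals mark GC boxes (GGGCGG) and an ETS site (CCGGAAGT) on either strand.
NTHL1: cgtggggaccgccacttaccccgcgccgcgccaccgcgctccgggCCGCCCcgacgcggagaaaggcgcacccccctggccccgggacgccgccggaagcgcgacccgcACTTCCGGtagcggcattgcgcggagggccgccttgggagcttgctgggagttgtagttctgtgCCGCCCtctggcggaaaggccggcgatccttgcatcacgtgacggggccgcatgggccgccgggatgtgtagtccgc
PARP1: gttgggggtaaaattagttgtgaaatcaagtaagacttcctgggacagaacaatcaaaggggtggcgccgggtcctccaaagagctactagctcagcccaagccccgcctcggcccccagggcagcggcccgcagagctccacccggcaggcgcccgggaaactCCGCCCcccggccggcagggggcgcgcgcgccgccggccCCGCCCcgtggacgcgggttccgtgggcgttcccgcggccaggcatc
Both windows hold 2 GC boxes, and the ETS site is in NTHL1. The ERCC4 window above holds neither.

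**Figure D3:**
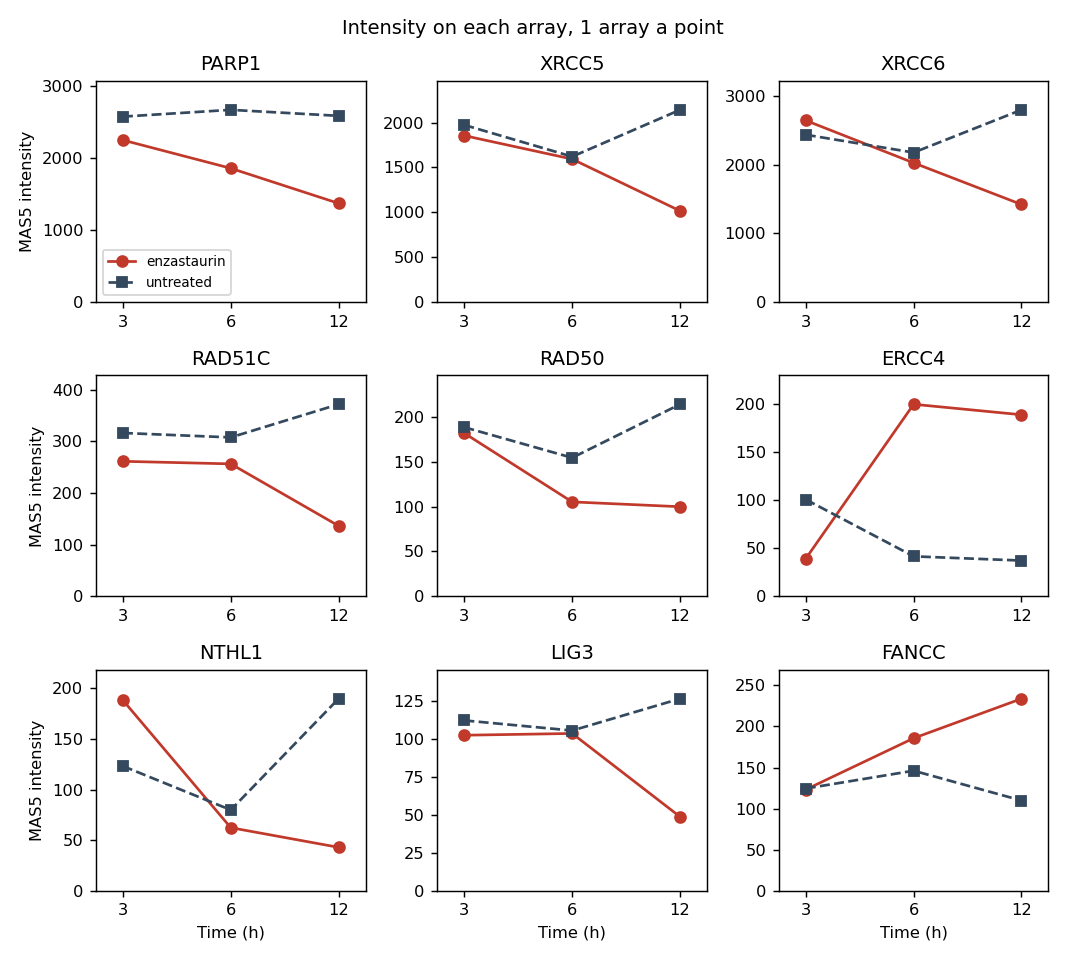
MAS5 intensity (vertical axes, from 0) of 9 repair genes against time in hours on the 3 enzastaurin arrays (circles, solid lines) and 3 untreated arrays (squares, dashed lines), 1 array a point with no error bars. PARP1 was 1367 with enzastaurin at 12 h against 2580 in untreated cultures, and XRCC5 was close to its untreated values until 12 h.

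In end joining, both Ku genes had their low values at 12 h. XRCC5 (Ku80) and XRCC6 (Ku70) form the ring that first binds a broken end. XRCC5 had 1854, 1593 and 1015 with enzastaurin, against 1973, 1620 and 2142 in untreated cultures. Its log2 ratios were -0.09, -0.02 and -1.08 (mean -0.40, SE 0.26, adjusted p = 0.980), and a second probe set had -0.14, -0.35 and -1.31. XRCC6 had 2647, 2028 and 1421 with enzastaurin, against 2438, 2179 and 2801 in untreated cultures, and log2 ratios of 0.12, -0.10 and -0.98 (mean -0.32, SE 0.24, adjusted p = 0.980). For both genes the enzastaurin value at 12 h was the lowest of the 6 and the untreated value at 12 h the highest, and the groups overlapped. The slope of XRCC6 was -0.55 (SE 0.25, unadjusted p = 0.0276, adjusted p = 0.344 in limma), where 11.0 percent of all genes had an unadjusted slope p below 0.05. Without the 12 h pair the mean log2 ratio of XRCC6 was 0.01.

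PRKDC, the catalytic subunit of DNA-PK that the Ku ring recruits, had 538, 449 and 445 with enzastaurin, against 674, 621 and 537 in untreated cultures. The groups overlapped by little (mean log2 ratio -0.35, SE 0.28, adjusted p = 0.980), and a weaker kept probe set gave -0.60, 0.44 and 0.57, so its direction rests on the probe set. XRCC4, the scaffold of the ligase, had 171, 157 and 182 with enzastaurin against 188, 163 and 276 in untreated cultures, with 1 sign at all times (mean log2 ratio -0.26, SE 0.30, adjusted p = 0.988). Its ligase partner LIG4 was dim, with ratios of -0.03, 0.44 and 0.66. End joining had the lowest median ratio of the 7 pathways at 12 h, at -0.79 over 4 genes, and it was below 0 under each scaling tried.

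The window before XRCC6 is shown for the Ku pair (RefSeq, GRCh38.p14, chr22:41621045-41621294, plus strand). Capitals mark 3 GC boxes and 1 CCAAT box (CCAAT), the last read on the opposite strand.
XRCC6: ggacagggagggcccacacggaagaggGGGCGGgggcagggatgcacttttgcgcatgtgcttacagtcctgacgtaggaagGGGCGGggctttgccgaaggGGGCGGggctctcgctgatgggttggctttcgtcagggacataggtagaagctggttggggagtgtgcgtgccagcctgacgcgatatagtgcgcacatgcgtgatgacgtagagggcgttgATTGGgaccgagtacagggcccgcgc
Over the 40 repair genes with a window, GC boxes were in 72.5 percent and CCAAT boxes in 42.5 percent, against 42.6 and 32.0 percent of all 35116 windows, which include those of non-coding genes. ETS sites were in 12.5 percent of repair gene windows and 3.42 percent of all. E2F sites (TTTCGCGC, TTTGGCGC, TTTCCCGC or TTTGCCGC) were in 5 and 2.79 percent, and cAMP response elements (TGACGTCA) in 5 and 1.65 percent. Both strands were searched. A match is only a description of these letters.

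Homologous recombination genes were mostly on the lower side, with 7 of 8 tested genes at a mean ratio below 0. RAD51C, which acts in strand exchange and its resolution, had 261, 256 and 136 with enzastaurin, against 316, 307 and 372 in untreated cultures. All enzastaurin values of RAD51C lay below all untreated ones, by most at 12 h (log2 ratio -1.45, mean -0.66, SE 0.33, adjusted p = 0.959), and a weaker probe set had -0.17, -0.10 and -0.30. XRCC2, which forms a complex with RAD51C, had 105, 160 and 196 with enzastaurin against 185, 478 and 177 in untreated cultures, so that its mean of -0.75 (SE 0.36, adjusted p = 0.913) rests mainly on 1 bright untreated array at 6 h.

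RAD50, MRE11 and NBN encode the complex that holds and trims broken ends. RAD50 had 182, 105 and 99.8 with enzastaurin, against 188, 154 and 214 in untreated cultures, which overlapped only through the 3 h enzastaurin array (mean log2 ratio -0.57, SE 0.32, adjusted p = 0.980). A weaker RAD50 probe set gave 0.93 at 12 h, opposite to the -1.10 of the one used. MRE11 had ratios of -0.60, 0.07 and -0.998. NBN had 0.14, 0.12 and -0.20, and its 3 weaker probe sets lay between -0.92 and 0.87. RAD50 and MRE11 had their lowest ratio at 12 h.

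BRCA1, the scaffold and ubiquitin ligase of recombination, had 152, 240 and 236 with enzastaurin, against 236, 260 and 223 in untreated cultures (mean log2 ratio -0.22, SE 0.30, adjusted p = 0.996). Its low value was at 3 h and the groups overlapped. A weaker kept probe set of BRCA1 had log2 ratios of -0.41, -0.41 and -0.63, lower at each time. The time of the lowest ratio therefore rests on the probe set. BARD1, the binding partner of BRCA1, had ratios of -0.57, 0.06 and -0.61. RAD54L, a motor protein of strand exchange, had 208, 300 and 218 with enzastaurin, against 279, 424 and 245 in untreated cultures (mean log2 ratio -0.37, SE 0.29, adjusted p = 0.980), lower at each time.

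All 5 damage signalling genes were below 0 at 3 h, with a median of -0.39, where 53.6 percent of all genes were below 0. So were 70.3 percent of the 37 repair genes, 69.8 percent of further repair genes and 91.3 percent of mitosis genes. With quantile normalization ATR was at 0.01 at 3 h. ATM, the kinase that double-strand breaks activate, had 91.3, 144 and 158 with enzastaurin, against 181, 128 and 123 in untreated cultures (mean log2 ratio -0.15, SE 0.34, adjusted p = 0.999). ATM was thus lower at 3 h and higher later, and without the 3 h pair its mean ratio was 0.27 (0.16 for CHEK1). CHEK1, the kinase downstream of ATR, had 283, 305 and 269 against 434, 248 and 267 (mean log2 ratio -0.10, SE 0.31, adjusted p = 0.999), a difference held by the untreated 3 h array. CHEK2 had 119, 81.0 and 101 with enzastaurin against 155, 92.7 and 138 in untreated cultures, lower at each time (mean -0.34, SE 0.30, adjusted p = 0.986). ATR, at -0.06, 0.43 and -0.54, and the chromatin adaptor TP53BP1, at -0.39, 0.32 and -0.29, had no common sign. The untreated 3 h array was among those with low ribosomal RNA signal, and with that signal as a covariate the mean log2 ratios were -0.37 for ATM (SE 0.34) and -0.25 for CHEK1 (SE 0.32).

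Of the mismatch genes, MSH6, a mismatch recognition protein, had 1028, 1038 and 565 with enzastaurin, against 1292, 950 and 1048 in untreated cultures. Only the 12 h enzastaurin value of MSH6 lay apart from the rest (mean log2 ratio -0.36, SE 0.28, adjusted p = 0.980), and a weaker kept probe set had -0.25 at that time. MSH3, which binds insertion loops, had -0.43, -0.22 and 0.09, and PMS1 -0.62, 0.14 and 0.10. No mismatch gene kept 1 sign at all 3 times. The Fanconi anaemia genes act on crosslinked strands. FANCC, of its core complex, had 123, 186 and 234 with enzastaurin, against 125, 146 and 110 in untreated cultures, and at 12 h its log2 ratio of 1.09 was, beside ERCC4, the other one above 1 (mean 0.47, SE 0.32, adjusted p = 0.980). FANCG had 0.19, -0.41 and -0.47.

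**Figure D4:**
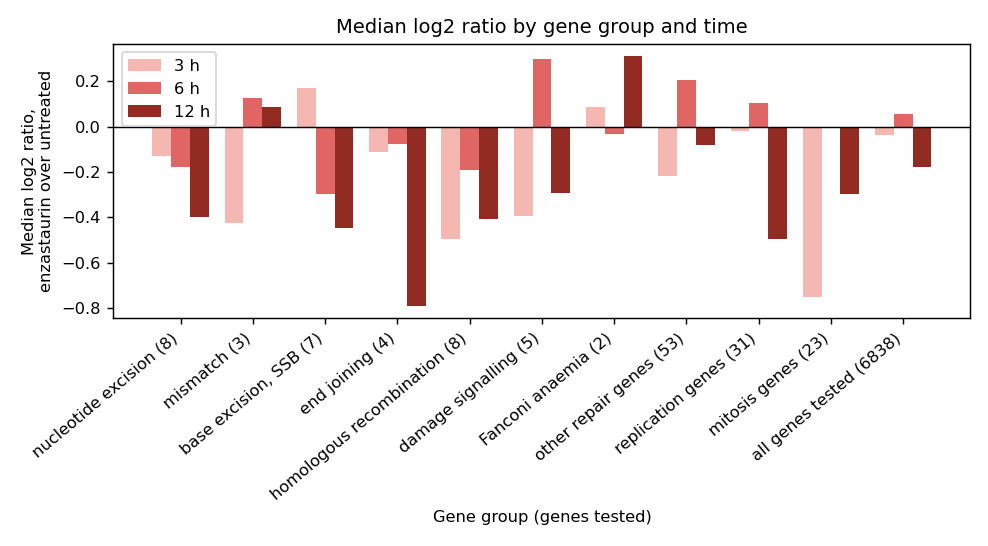
Median log2 ratio of enzastaurin over untreated cells at 3, 6 and 12 h (bars, light to dark) for the 7 repair pathways, for further gene lists and for all genes tested, with the number of genes tested in brackets. Bars have no error since there was 1 array on each side. End joining had the lowest repair median at 12 h (-0.79), mitosis genes the lowest at 3 h (-0.75), and all genes lay at -0.18 at 12 h.

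Further repair genes were looked at beside these. Of 78 further repair genes looked for, 53 were tested, 24 had a mean ratio above 0 and 29 below 0, and none passed in limma in any of the 3 fits. Their median mean ratio was -0.03, against -0.25 for the repair genes above and -0.05 for all genes. The lowest mean ratios were those of UNG, which removes uracil from DNA (-0.15, -0.67 and -1.27 at 3, 6 and 12 h), and LIG1, the replication ligase (0.24, -1.18 and -1.07). LIG1 was at 102 to 219 on the 3 arrays with low ribosomal RNA signal and at 232 to 259 on the others. The highest mean ratios were those of POLB, the gap-filling polymerase of base excision (0.14, 0.69 and 0.89), and TDP1, which frees trapped topoisomerase (-0.19, 0.93 and 0.36).

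Many recombination and checkpoint genes are transcribed in dividing cells, so proliferation genes are given beside them. Of 31 replication and S phase genes tested, 27 had a mean ratio below 0, with medians of -0.02, 0.10 and -0.49 at 3, 6 and 12 h. In the late fit the helicase subunit MCM7 (adjusted p = 0.0437 in limma) and the polymerase POLD1 (log2 ratio -1.37, adjusted p = 0.0334) fell. Of all genes 2.08 percent were called lower in that fit. At 3 h the log2 ratios were 0.23 for MCM7 and 1.09 for POLD1. POLD1 was at 98.9 to 99.6 on the 3 arrays with low ribosomal RNA signal and at 211 to 268 on the others. MCM7 was likewise at 692 to 1358 on those 3 arrays and at 1496 to 1857 on the others. As for ERCC4, treatment and that signal cannot be told apart in the late pairs. Of 23 mitosis genes, 22 had a mean ratio below 0, with medians of -0.75, -0.00 and -0.30. The kinesin CENPE had a called upward slope, where 0.512 percent of all genes were called. With equal medians of the genes tested, 0 of all genes had a called slope. CENPE was at 206 to 256 on the 3 arrays with low ribosomal RNA signal and at 50.5 to 142 on the others. The part of the proliferation genes in the repair ratios was not tested. Among 13 tested p53 targets, the cell cycle inhibitor CDKN1A (1.47) and GADD45A (2.17) rose in the late fit (log2 ratios), and PHLDA3 (-2.09) fell. Of all genes 1.54 percent were called higher in it and 2.08 percent lower. PHLDA3 was at 13.3 with enzastaurin at 12 h, at the level of absent cell type markers, so the size of its fall is uncertain. At 3 h the log2 ratios were 1.77 for CDKN1A, -0.54 for GADD45A and -0.22 for PHLDA3. GADD45A was at 761 to 1609 on the 3 arrays with low ribosomal RNA signal and at 310 to 522 on the others. Treatment and that signal cannot be told apart for it in the late pairs either. The plasma cell markers differed among themselves at 12 h, from a log2 ratio of -3.08 for TNFRSF17 to 0.87 for JCHAIN.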

How the data were processed

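RNA was measured with Affymetrix arrays of 22277 probe sets, 1 array per treatment and time. The deposited values are linear intensity values. Per the submitters' processing notes the authors used MAS5, with no version, scaling target or detection calls stated in the sources used. The authors' scaling was kept, since the arrays' median log2 values lay within 0.12 of each other. Intensities were floored at 1 and log2 transformed. Beside 62 control probe sets, 19064 were paired with 1 gene, 1043 with several and 2108 with none listed, and Entrez identifiers of 19052 were matched to current symbols in RefSeq (GRCh38.p14). The brighter 50 percent of probe sets, by their mean on the log2 scale, entered the tests, and the brightest for each gene was tested. Probe sets whose names end in _s_at or _x_at can also match related transcripts. Of 14 repair genes with over 1 kept probe set, 5 (NBN, OGG1, PRKDC, RAD23B and RAD50) differed between them in the sign of the mean ratio.

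The treatment effect was estimated in R 4.3.3 by limma 3.58.1, using lmFit and a trended eBayes prior, with the time point as a block since the labels pair arrays by time, and Benjamini-Hochberg adjustment over 6838 genes. It has 2 residual degrees of freedom and a prior of 9.26. The same fit on the 6 h and 12 h pairs has 1 and 16.86. The slope on log2 hours has 1, and its prior was estimated as infinite, so its errors come from the prior. All tests are two-sided. The number of arrays limits the precision. Alternatives were 4 scalings or floors, no filter, means over probe sets, no trend, no block, a ribosomal RNA covariate and leaving out pairs. The fits were tested on simulated data.

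Genes, lists and the late fit were chosen with earlier results of these data known. Values on every array are given for called genes, for up to 3 genes per pathway with the largest mean ratio of 1 sign at all times, for genes whose groups do not overlap, and for PARP1, PRKDC, XRCC5, BRCA1, ATM, ERCC1, MSH6, APEX1 and CHEK1. XRCC6, LIG3's partner XRCC1, XRCC2 and FANCC were added after their values were seen. Of further lists, the 2 largest ratios in a direction or the called genes are named. Promoter windows are the 250 bases before a RefSeq start, found for 40 of 43 genes.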

Additional observations from a re-analysis of the deposited data

Results flagged for a closer look

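For 2 repair genes the slope of the treatment effect over time passed the test, though not under every alternative. The slope of ERCC4 was 1.85 per doubling of hours, with log2 ratios of -1.36, 2.26 and 2.34 for the 3, 6 and 12 h pairs. That of NTHL1 was -1.38, and its log2 ratios ran 0.61, -0.36, -2.14 over the same times. With 3 times, 1 slope cannot separate a gradual shift and a single jump. Ribosomal RNA probe sets changed side between 3 h and the later pairs too, and their part in both slopes cannot be told apart from that of time. With quantile normalization the adjusted p was 0.157 for ERCC4 and 0.181 for NTHL1, and with equal medians of the genes tested 0.333 and 0.336. Without the intensity filter it was 0.0549 for NTHL1.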

How the results depend on the processing

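No repair gene passed over all 3 times under any full-data alternative, the fit without the time point (no replicate block) included, where 0 passed; without one pair the count was 0 to 1, ERCC4 passing without the 3 h pair. Over all genes this fit called 4, and 0 to 247 under the alternatives (247 without the 3 h pair, 74 with the ribosomal RNA covariate, 0 without the trend). In the 6 h and 12 h fit, ERCC4 passed under every alternative run, though in the main processing its untreated mean lay below the filter. Without the filter 2 repair genes passed (with NTHL1, 564 of all genes against 247). With equal medians of the genes tested, an alternative chosen after seeing the data, 2 passed too (with PARP1, adjusted p = 0.0373 in limma, 548 of all genes). Of 2 called slopes, 0 passed with quantile normalization (7 of all genes against 98), 0 with equal medians of the genes tested (0 of all genes) and 1 without the filter, ERCC4 (151 of all genes); equal medians of all probe sets kept both (167 of all genes). The median ratio of the repair genes ran from -0.32 to -0.16 with a pair left out and from -0.28 to -0.19 otherwise. At least 2-fold higher at 6 h was 1 repair gene with quantile normalization, with equal medians of all probe sets and with equal medians of the genes tested, against 2. At least 2-fold lower at 12 h were 3 with quantile normalization (551 of all genes), 3 with equal medians of the genes tested (454), against 5 (712); equal medians of all probe sets gave 7 (782). Quantile normalization and equal medians of the genes tested moved the median of all genes at 12 h by 0.14 and 0.19. The causes were not tested. The late fit could not lose a pair, nor could the slope, nor could either take the covariate, for want of residual degrees of freedom. Dim genes and single arrays limit the rest.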
